A study of Mus musculus with 6 samples.

Results

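Acyl-CoA thioesterases (Acot genes) and acyl-CoA:amino acid N-acyltransferases (Acnat genes) were followed in mouse liver through 10 genes: Acot1, Acot2, Acot3, Acot4, Acot5, Acot8, Acot12, Acot13, Acnat1 and Acnat2. They were taken by gene name from a table of 28601 genes, and all 10 were present. They were selected on their known roles and on the measured Cys52Ser against WT differences of these same livers. The differences between genotypes given for these 10 genes are therefore a description, with no test, and their intervals do not allow for that choice.

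RNA was sequenced from the livers of 3 male PRDX1 Cys52Ser mice and 3 male wild-type (WT) mice. Peroxiredoxin 1 (PRDX1) reduces peroxides, and the mutants carry serine in place of cysteine at its position 52. All 6 mice ate CDAHFD, a choline-deficient, amino acid-defined high-fat diet that produces fatty, inflamed and fibrotic liver in mice. By the titles and the study's design, feeding started at 8 weeks of age and went on for 8 weeks. The treatment labels differ from this and give 11, 12 and 13 weeks to Cys52Ser replicates 1, 2 and 3, and 8, 9 and 10 weeks to WT replicates 1, 2 and 3. If those labels hold, genotype and time on the diet cannot be told apart. No mice on another diet are among the 6, and the labels do not say how the mutant line was made, whether WT mice were littermates or whether the mutation is homozygous.

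Acyl-CoA thioesterases split fatty acyl-CoA into a free fatty acid and coenzyme A, which sets how much activated fatty acid and free coenzyme A a compartment holds. The type I enzymes share 1 fold and are spread over compartments: ACOT1 is cytosolic, ACOT2 is mitochondrial, and mouse ACOT3, ACOT4 and ACOT5 are peroxisomal. The type II enzymes are unrelated in sequence to type I and have a hotdog fold: ACOT8 is peroxisomal, ACOT12 hydrolyses acetyl-CoA in the cytosol, and ACOT13 acts on long-chain acyl-CoA at mitochondria. ACNAT1 and ACNAT2 are peroxisomal relatives of BAAT, the bile acid conjugating enzyme, and mouse ACNAT1 joins fatty acids to taurine. In mouse liver several of these genes are targets of PPAR-alpha, the fatty acid receptor that is active in fasting and that binds DNA with RXR at DR1 elements.

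The chromosome 12 genes lie on the plus strand of GRCm38 within 88.2 kb, from 83987861 to 84076020. Their order is Acot2 (83987861 to 83993873), Acot1 (84009490 to 84018371), Acot4 (84038379 to 84048601), Acot3 (84052144 to 84060402) and Acot5 (84069325 to 84076020). Acnat2 (49379840 to 49408151) and Acnat1 (49447105 to 49473879) lie on the minus strand of chromosome 4 within 94.0 kb. Acot8 lies on chromosome 2 (164792765 to 164804882, minus strand), Acot12 on chromosome 13 (91741512 to 91786148, plus strand) and Acot13 also on chromosome 13 (24817948 to 24831540, minus strand). In the annotation, Acot3 and Acot4 are both overlapped on their own strand by the gene model Gm49366 and on the other strand by 4732463B04Rik. Gm49366 was at 0 CPM (the count relative to library size, scaled between libraries by TMM) in 5 of the 6 libraries and at 0.0506 CPM in WT replicate 1. The antisense model 4732463B04Rik had 2.60, 0.976 and 2.55 CPM in Cys52Ser livers, against 0.417, 1.25 and 0.589 CPM in WT livers. Snx21, 4833422C13Rik with Gm24597, and Gm12451 overlap Acot8, Acot12 and Acnat2 in that order on the opposite strand. The sources used here do not state whether counting was by strand, so reads of such pairs cannot be told apart.

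The type I genes resemble each other closely in sequence, which bears on how reads were shared out. Over the longest open reading frame, Acot1 and Acot2 were identical at 95.5% of aligned positions and Acnat1 and Acnat2 at 96.2%. Acot3 and Acot5 had 85.8% identity, Acot1 and Acot3 had 84.0%, and Acot4 had between 75.2% and 76.6% with the other 4 chromosome 12 genes. Of all stretches of 150 bases in the transcript, 12.4% in Acot1, 10.2% in Acot2, 6.6% in Acnat1, 5.9% in Acnat2, 3.4% in Acot5 and 2.7% in Acot3 also occur in a transcript of another of the 10 genes or Acot6. For Acot4, Acot8, Acot12 and Acot13 that share was 0.0%. The split of values between Acot1 and Acot2, and between Acnat1 and Acnat2, is therefore less certain than their sums. The values of Acot3 and Acot4, which share few or no such stretches, do not rest on that split.

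Promoter windows from RefSeq (GRCm38.p6, 250 bases before to 50 after a start) were given for 9 of the 10 genes; Acot13 had none. For Acot3 and Acnat2, which had more than 1 window, 1 window each is printed because these genes had the largest differences in level. The windows of Acot4 and Acot12 are printed because they alone held a DR1 match. Lower case is sequence without a match; capitals mark exact AGGTCA motifs on either strand (TGACCT on the printed strand) and the repeat bases of DR1 matches. All are written 5′ to 3′ on the strand of the gene.
Acot4, chr12:84038129-84038428, plus strand: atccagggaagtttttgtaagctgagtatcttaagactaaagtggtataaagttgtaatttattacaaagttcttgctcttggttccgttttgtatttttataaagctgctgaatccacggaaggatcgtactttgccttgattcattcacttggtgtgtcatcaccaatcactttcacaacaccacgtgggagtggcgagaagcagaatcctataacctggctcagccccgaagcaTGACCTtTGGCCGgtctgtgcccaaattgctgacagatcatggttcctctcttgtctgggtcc
Acot12, chr13:91741271-91741570, plus strand: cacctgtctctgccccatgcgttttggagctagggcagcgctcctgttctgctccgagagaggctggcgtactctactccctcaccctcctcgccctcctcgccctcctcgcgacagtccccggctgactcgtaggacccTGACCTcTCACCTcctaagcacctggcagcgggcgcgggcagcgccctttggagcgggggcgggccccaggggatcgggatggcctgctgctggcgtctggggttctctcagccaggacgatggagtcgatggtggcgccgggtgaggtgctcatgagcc
Acot3, chr12:84051894-84052193, plus strand: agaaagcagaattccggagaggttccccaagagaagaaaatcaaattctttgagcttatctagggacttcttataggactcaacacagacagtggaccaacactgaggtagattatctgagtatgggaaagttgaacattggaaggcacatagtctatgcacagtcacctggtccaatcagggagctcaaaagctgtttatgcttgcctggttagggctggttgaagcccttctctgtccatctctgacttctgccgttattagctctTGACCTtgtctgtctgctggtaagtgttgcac
Acnat2, chr4:49408102-49408401, minus strand: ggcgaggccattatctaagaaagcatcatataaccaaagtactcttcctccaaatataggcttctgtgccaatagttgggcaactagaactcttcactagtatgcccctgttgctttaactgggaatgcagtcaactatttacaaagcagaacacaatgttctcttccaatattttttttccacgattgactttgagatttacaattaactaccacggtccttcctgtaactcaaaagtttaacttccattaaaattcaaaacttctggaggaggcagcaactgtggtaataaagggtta
A DR1 was searched as AGGTCA repeated after 1 free base, on both strands, with up to 2 mismatches in the repeat bases. Such a match was present in windows of 2 of the 9 genes, against 3.86% of 32851 windows of that length. A gene was counted if any of its windows held a match, and Acot3, Acot5 and Acnat2 had more than 1 window. Counts of genes and shares of windows are therefore not in the same unit, here and below. In Acot4 the match began 13 bases before the start with 2 mismatches, and in Acot12 it began 110 bases before the start with 1 mismatch. An exact AGGTCA, including those inside a DR1 match, was in windows of 4 of the 9 genes (Acot3, Acot4, Acot5 and Acot12), against 16.3% of all windows. With up to 1 mismatch the DR1 count was 1 gene against 0.554% of windows, and with up to 3 it was 5 genes against 24.6% of windows. These are letters in 1 window per start, and nothing about binding was measured.

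Totals per library were 56473479 to 73900923 counts in Cys52Ser livers and 53318196 to 65465225 in WT livers. Apart from Acot5, the lowest counts of the 10 genes were those of Acot3 in WT livers: Acot3 had 1542, 1039 and 1323 counts in Cys52Ser livers and 94, 281 and 96 in WT livers. Counting error was small beside the spread between mice in CPM, except for Acot5 and for Acot8 in WT livers. Acot8 had 969, 821 and 739 counts there, at 12.9 ± 0.624 CPM (SD, n = 3). TMM scaling factors were 0.814 to 0.963 in Cys52Ser and 1.05 to 1.21 in WT libraries. With library totals alone, the median over all tested genes was -0.35 on the log2 scale, against -0.003 with TMM. At an adjusted p under 0.05 (Benjamini-Hochberg over 18648 genes), the quasi-likelihood test of edgeR called 469 genes higher and 459 lower in Cys52Ser livers. With library totals alone it called 293 higher and 2724 lower. Prdx1 was at 780 ± 105 CPM in Cys52Ser and 920 ± 57.2 CPM in WT livers (SD, n = 3 each; edgeR adjusted p = 0.421), and it lies 67.2 Mb from Acnat1 on the same chromosome. Every Cys52Ser liver was below every WT liver for Prdx1, by a small margin in CPM. In FPKM (fragments per kilobase, as deposited) it was at 200 ± 17.2 in Cys52Ser and 301 ± 5.78 in WT livers (SD, n = 3 each). A change of 1 residue is not visible in these values.

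Among the 10 genes, 4 (Acot3, Acnat2, Acot4 and Acnat1) were called higher in Cys52Ser livers by that test across all genes, and 6 were not called. No gene of the 10 was called lower, by edgeR, by DESeq2 or by limma on FPKM, and none had a lower value at an unadjusted p under 0.05 by any of the 3 tools. Across the table, 2.52% of tested genes were called higher and 2.46% lower. Without Cys52Ser replicate 1 or replicate 3 Acnat2 alone was called, and without WT replicate 1, 2 or 3 there were 3 calls. Since the names were chosen with this contrast in view, nothing is read from the share of 4 in 10. The median log2 fold change of the 10 genes was 0.91, against -0.003 for all tested genes, and 9 of the 10 values were above 0. In 6 genes every Cys52Ser library lay above every WT library in CPM, which held for 14.4% of all tested genes. Of these 6, Acot1 and Acot8 overlapped between genotypes in deposited FPKM.

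**Figure D1:**
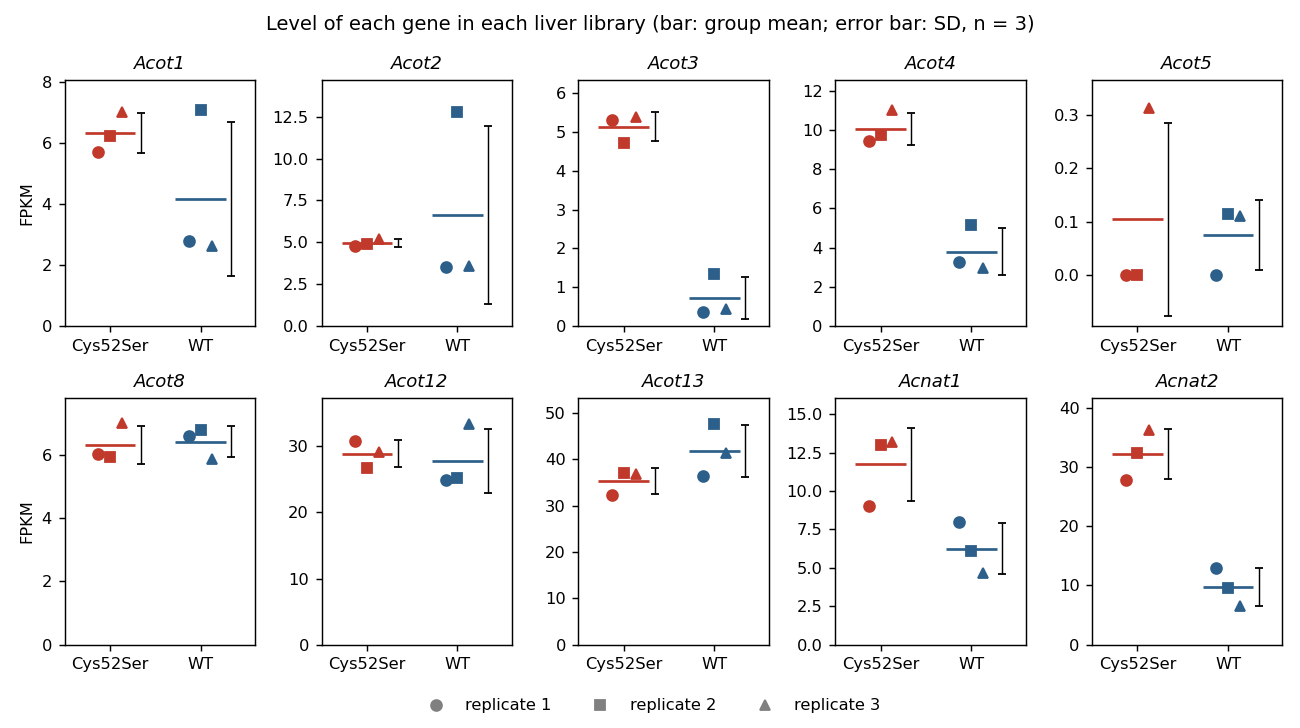
FPKM (fragments per kilobase of transcript scaled to library size, as deposited) of each of the 10 genes in each liver library, with Cys52Ser mice in red and WT mice in blue; lines are group means, error bars SD (n = 3), and marker shapes are replicate numbers. Acot3, Acot4, Acnat1 and Acnat2 show no overlap between genotypes, and WT replicate 2 (blue square) stands above the other WT livers for Acot1, Acot2 and Acot3.

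The peroxisomal type I genes Acot3 and Acot4 had the largest differences of the thioesterases. Acot3, whose product hydrolyses long-chain acyl-CoA in mouse peroxisomes, was at 23.6, 19.1 and 25.3 CPM in Cys52Ser livers, against 1.19, 4.62 and 1.66 CPM in WT livers. All Cys52Ser livers were far above all WT livers, and the highest WT liver was replicate 2. The log2 fold change was 3.19 ± 0.52 (SE), a 9.13-fold higher level with a 95% confidence interval of 1.96 to 4.42 on the log2 scale. It was the 24th largest among all tested genes. Acot3 averaged 5.14 ± 0.36 FPKM in Cys52Ser and 0.72 ± 0.546 FPKM in WT livers (SD, n = 3 each).

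Acot4 encodes a peroxisomal enzyme that acts on succinyl-CoA in mice. It was at 81.2, 76.6 and 100 CPM in Cys52Ser livers, against 20.3, 34.2 and 21.5 CPM in WT livers. The groups were well apart, with WT replicate 2 again the highest WT liver. Its log2 fold change was 1.77 ± 0.22 (SE; 95% confidence interval 1.24 to 2.29). In FPKM the level was 10 ± 0.82 in Cys52Ser and 3.79 ± 1.19 in WT livers (SD, n = 3 each). Acot5, which acts on medium-chain acyl-CoA in mouse peroxisomes, was close to absent: its counts were 0, 0 and 35 in Cys52Ser livers and 0, 11 and 11 in WT livers. Both groups held libraries at 0, no fold is given for it, and 3 counts correspond to between 0.0379 and 0.0574 CPM in these libraries for counting error alone.

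Acot1 and Acot2, for the cytosolic and the mitochondrial enzyme, behaved otherwise. Acot1 was at 28.9, 28.8 and 37.6 CPM in Cys52Ser livers, against 10.2, 27.6 and 11.2 CPM in WT livers. WT replicates 1 and 3 were low while WT replicate 2 came just under the lowest Cys52Ser liver. In FPKM, WT replicate 2 of Acot1, at 7.07, was above every Cys52Ser liver (5.7, 6.24 and 7.01). The log2 fold change was 0.96 ± 0.39 (SE; 95% confidence interval 0.03 to 1.9), not called, and it was 1.52 and called without WT replicate 2.

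Acot2 was at 13.6, 12.6 and 15.7 CPM in Cys52Ser livers, against 7.20, 28 and 8.58 CPM in WT livers. Here WT replicate 2 was the highest of all 6 livers and the other WT livers the lowest, so the groups overlapped. Its log2 fold change was -0.06 ± 0.51 (SE), and it was 0.77 without WT replicate 2 and -0.44 without WT replicate 1. The sum of Acot1 and Acot2 in CPM depends little on how reads were split between them. It was 42.5, 41.4 and 53.3 CPM in Cys52Ser livers and 17.4, 55.5 and 19.8 CPM in WT livers. In FPKM, where each gene is divided by its own length, the sum was 10.5, 11.1 and 12.2 in Cys52Ser livers. The WT livers had 6.30, 19.9 and 6.21 FPKM.

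For both Acnat genes every Cys52Ser library lay above every WT library. Acnat2 was at 62.8, 66.6 and 86.7 CPM in Cys52Ser livers, against 21.1, 16.6 and 12.5 CPM in WT livers. The lowest Cys52Ser liver was well above the highest WT liver, and WT replicate 2 lay between the other WT livers. The log2 fold change was 2.11 ± 0.22 (SE; 95% confidence interval 1.6 to 2.62).

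Acnat1 was at 24.8, 32.5 and 38.5 CPM in Cys52Ser livers, against 15.7, 13 and 10.8 CPM in WT livers. The groups were apart by less than for Acnat2, and the log2 fold change was 1.28 ± 0.20 (SE; 95% confidence interval 0.80 to 1.75). In FPKM, Acnat1 was at 9.0, 13 and 13.2 in Cys52Ser and 7.95, 6.11 and 4.63 in WT livers. Both genes together amounted to 43.9 ± 6.46 FPKM in Cys52Ser and 15.9 ± 4.87 FPKM in WT livers (SD, n = 3 each), a ratio of 2.76.

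None of the type II genes was called, and their log2 fold changes were 0.10 to 0.40. Acot12 was at 131, 104 and 131 CPM in Cys52Ser livers, against 76.1, 82.4 and 120 CPM in WT livers, where WT replicate 3 fell within the Cys52Ser range (log2 fold change 0.40 ± 0.20, SE). Acot13 was at 31.0, 32.4 and 37.4 CPM in Cys52Ser livers, against 25.2, 35.2 and 33.5 CPM in WT livers (log2 fold change 0.10 ± 0.15, SE). The ranges of Acot13 overlapped in part, with WT replicate 1 the lowest liver and Cys52Ser replicate 3 the highest. Acot8, whose enzyme removes coenzyme A from many acyl chains in peroxisomes, was at 15.5, 14.0 and 19.2 CPM in Cys52Ser livers, against 12.3, 13.5 and 12.8 CPM in WT livers. Every Cys52Ser value of Acot8 was above every WT value, by a small margin, with a log2 fold change of 0.34 ± 0.15 (SE).

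For Acot8 and Acot13 the sign depended on the scaling. With library totals alone the log2 fold change of Acot8 was -0.03 and that of Acot13 was -0.24, against a median of -0.35 over all genes. In deposited FPKM, Acot8 was at 6.01, 5.92 and 7.01 in Cys52Ser livers and 6.59, 6.79 and 5.86 in WT livers, with overlap. On the log2(FPKM + 0.5) scale in limma, where the median of all genes was -0.24, the log2 fold changes were 2.29 for Acot3, 1.72 for Acnat2, 1.33 for Acot4 and 0.87 for Acnat1, and these 4 genes kept their calls. That scale understates the difference of low genes such as Acot3.

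**Figure D2:**
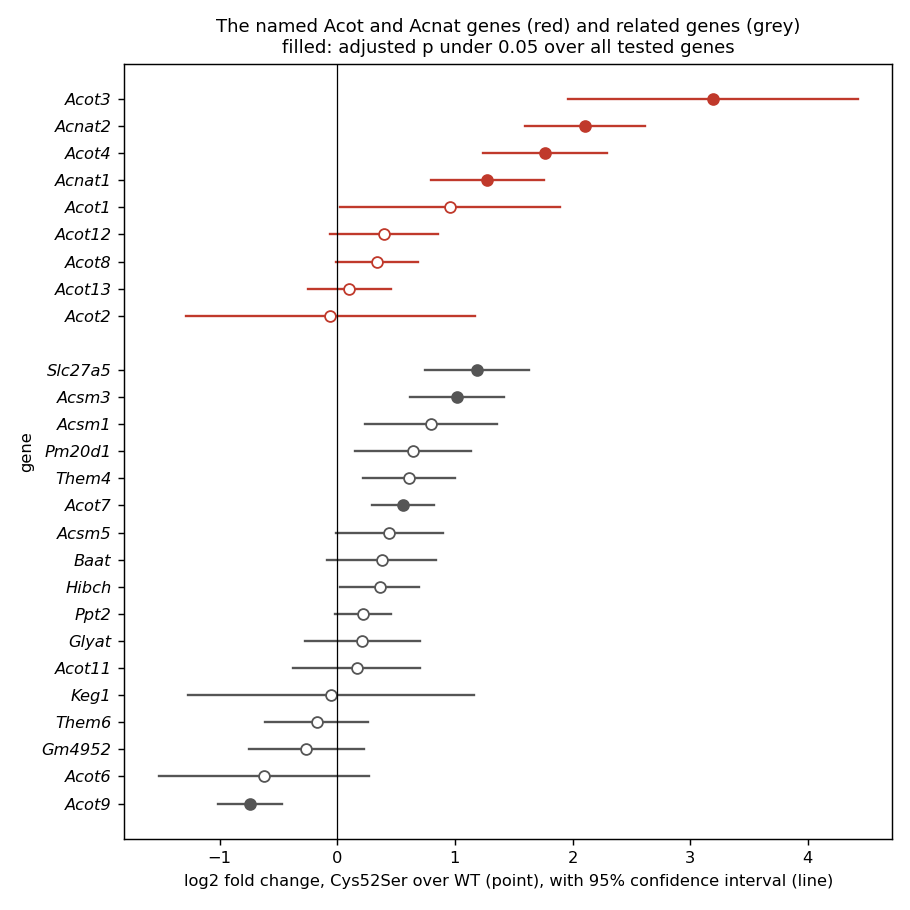
Log2 fold change of Cys52Ser over WT livers (point) with its 95% confidence interval (line) from edgeR for 9 of the 10 genes in red and for tested genes of the lists of other thioesterases and of other amino acid conjugation genes in grey; Acot5, Them5 and Acsm2, which had few counts, are not drawn. Filled points passed the adjusted threshold of 0.05 over all tested genes, and the 4 filled red points lie at 1.28 to 3.19.

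Levels between genes were compared in FPKM, which allows for transcript length. In Cys52Ser livers the order was Acot13 (35.3 ± 2.68), Acnat2 (32.2 ± 4.24), Acot12 (28.9 ± 2.04), Acnat1 (11.7 ± 2.36), Acot4 (10 ± 0.82), Acot1 (6.31 ± 0.657), Acot8 (6.31 ± 0.604), Acot3 (5.14 ± 0.36), Acot2 (4.97 ± 0.223) and Acot5 (0.105 ± 0.181; FPKM, SD, n = 3). In WT livers it was Acot13 (41.8 ± 5.58), Acot12 (27.8 ± 4.84), Acnat2 (9.71 ± 3.2), Acot2 (6.64 ± 5.34), Acot8 (6.41 ± 0.488), Acnat1 (6.23 ± 1.66), Acot1 (4.16 ± 2.52), Acot4 (3.79 ± 1.19), Acot3 (0.72 ± 0.546) and Acot5 (0.0752 ± 0.0651; FPKM, SD, n = 3). Neighbours in the Cys52Ser order overlapped between libraries except Acot12 with Acnat1, Acot4 with Acot1, Acot8 with Acot3 and Acot2 with Acot5. In WT livers the gaps were between Acot13 and Acot12, Acot12 and Acnat2, Acot4 and Acot3, and Acot3 and Acot5. Acnat2 overlapped both Acot13 and Acot12 in Cys52Ser livers, and lay below both in every WT liver.

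Summed over the 10 genes the level was 131, 141 and 151 FPKM in Cys52Ser livers and 98.8, 122 and 101 FPKM in WT livers. Every Cys52Ser liver was above every WT liver, and the ratio of means was 1.31. Acnat2 made up 22.8% ± 1.41 of that sum in Cys52Ser and 9.17% ± 3.52 in WT livers (SD, n = 3 each). Acot13 made up 25.0% ± 1.08 in Cys52Ser and 38.9% ± 1.91 in WT livers, although its own FPKM ranges met (32.2 to 37.0 in Cys52Ser, 36.4 to 47.6 in WT). Acot4 contributed 7.12% ± 0.172 in Cys52Ser and 3.48% ± 0.679 in WT livers, and Acot3 3.65% ± 0.355 in Cys52Ser and 0.639% ± 0.408 in WT livers. Acot3, Acot4 and Acnat2 each formed a larger share of the sum in every Cys52Ser liver than in any WT liver, while Acot8 formed a smaller one, at 4.47% ± 0.23 in Cys52Ser and 6.01% ± 0.582 in WT livers.

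**Figure D3:**
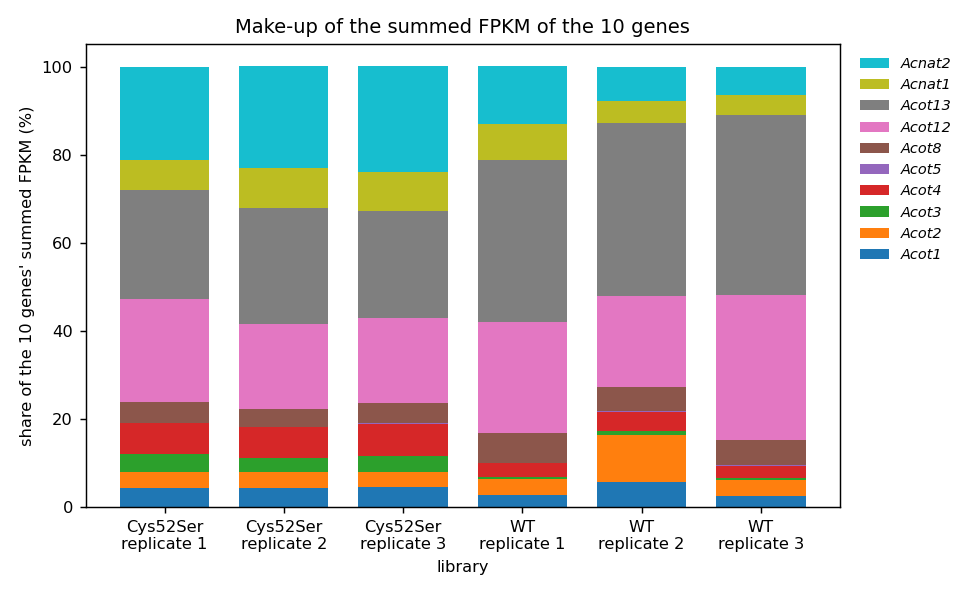
Share of the summed FPKM of the 10 genes that each gene made up, in percent, with Cys52Ser livers left of WT livers. The Acnat2 share is 22.8% in Cys52Ser and 9.17% in WT livers, and the Acot13 share is 25.0% in Cys52Ser and 38.9% in WT livers.

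Within the WT group, replicate 2 stood apart for part of the chromosome 12 cluster. Its CPM was at least 2 times that of both other WT livers for Acot2 (3.26 times the higher of them), Acot3 (2.78 times) and Acot1 (2.45 times), which is 3 of the 10 genes, against 336 of 18648 tested genes (1.8%). Acot4 was 1.59 times the higher of the other WT livers, and Acot8, Acot13, Acnat1 and Acnat2 did not stand out in that liver. Among 44 tested PPAR-alpha target genes, 5 (11.4%) met the same mark, and these were named after their values were seen: Cyp4a31 (3.28 times), Cyp4a14 (3.27), Fgf21 (2.38), Cyp4a10 (2.16) and Ehhadh (2.02). Fgf21 was at 14.4, 14.2 and 15.8 CPM in Cys52Ser livers, against 28.4, 97.3 and 40.9 CPM in WT livers. All WT livers were thus above all Cys52Ser livers for Fgf21 (log2 fold change -1.91, not called). Cyp4a14, a fatty acid omega-hydroxylase, was at 347, 437 and 546 CPM in Cys52Ser livers, against 118, 609 and 186 CPM in WT livers. WT replicate 2 was thus above all Cys52Ser livers for Cyp4a14, as for Acot2. Without it the log2 fold change of Acot3 was 3.94, that of Acot4 1.99, that of Acnat1 1.21 and that of Acnat2 2.04; Acnat1 and Acnat2 then lost their calls, while across all genes only 43 were called higher and 14 lower.

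**Figure D4:**
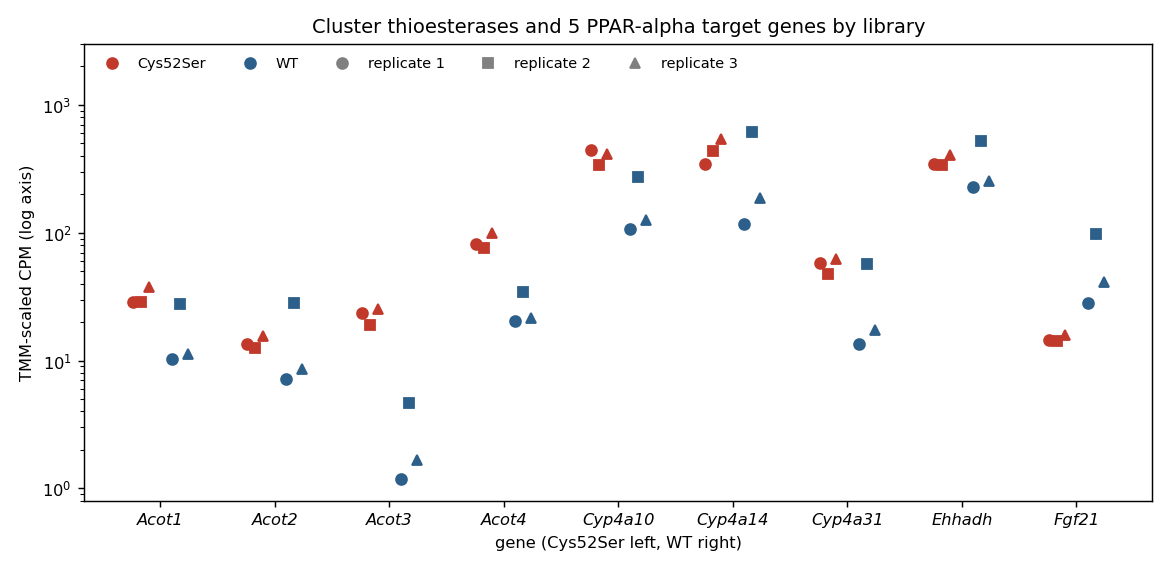
TMM-scaled CPM on a log axis for the 4 chromosome 12 thioesterases with usable counts and for 5 PPAR-alpha target genes picked after their values were seen, by library, with Cys52Ser mice in red to the left of WT mice in blue. WT replicate 2 (blue square) is the highest WT liver for each of these 9 genes, and lies above every Cys52Ser liver for Acot2, Cyp4a14, Ehhadh and Fgf21. For Fgf21 the other WT livers also lie above every Cys52Ser liver.

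Genes around the clusters were compared in position, which the choice of names did not use. Within 250 kb of the chromosome 12 cluster the table held 18 other genes, of which 12 were tested. Ptgr2, which encodes prostaglandin reductase, was called higher, at 65.5 ± 2.68 CPM in Cys52Ser and 47.9 ± 1.44 CPM in WT livers (SD, n = 3 each; log2 fold change 0.45, edgeR adjusted p = 0.0381). That call was lost in 12 of 18 alternatives. The median log2 fold change of the 12 neighbours was 0.27. At an unadjusted p under 0.05, edgeR had 3 of them higher and 1 lower, and limma on FPKM 0 higher and 3 lower. DESeq2 called 2 higher and 0 lower, and limma called none, so their direction depended on the tool. Acot6, the sixth type I gene of the cluster and just beyond Acot5, was at 1.12, 2.25 and 1.89 CPM in Cys52Ser livers, against 2.50, 3.57 and 2.01 CPM in WT livers (log2 fold change -0.62 ± 0.38, SE; edgeR adjusted p = 0.397), so it overlapped between genotypes.

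Within 250 kb of the Acnat genes 8 of 9 other genes were tested. The edgeR test called none of the 8; 1 was higher and none lower at an unadjusted p under 0.05, DESeq2 called 1 higher, and limma on FPKM called 1 lower. Their median log2 fold change was -0.06. One of these neighbours is Baat, the bile acid conjugating relative of the Acnat genes, at 191, 163 and 203 CPM in Cys52Ser livers, against 138, 109 and 182 CPM in WT livers. The groups overlapped for Baat, and its log2 fold change was 0.38 ± 0.20 (SE; edgeR adjusted p = 0.316).

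**Figure D5:**
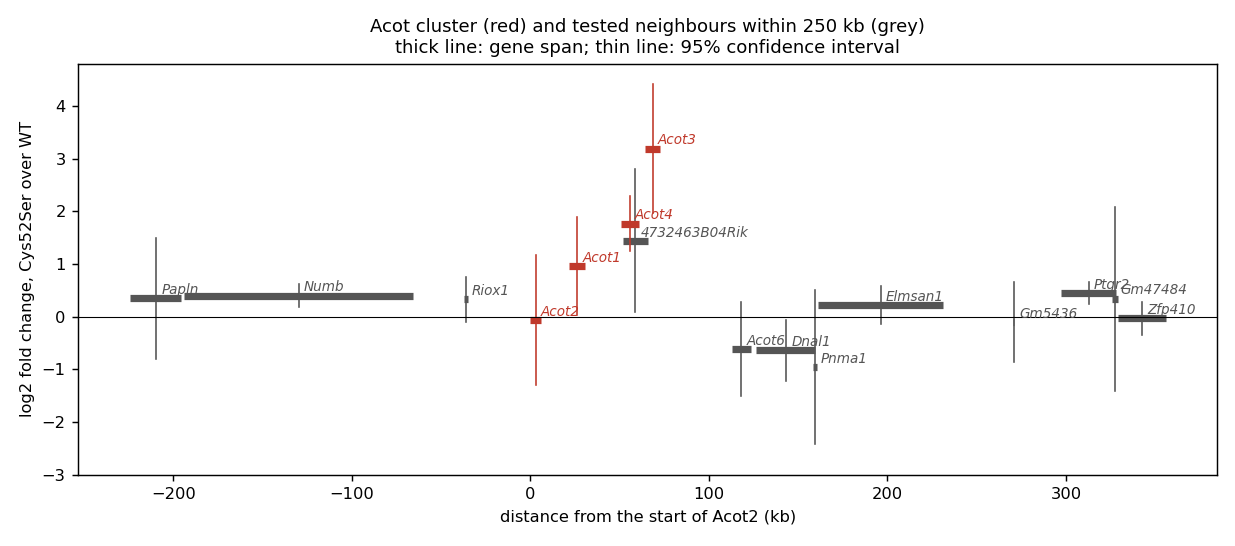
Log2 fold change of Cys52Ser over WT livers for the chromosome 12 thioesterases (red; Acot5, near 0 counts, is not drawn) and the tested genes within 250 kb (grey), against distance in kb from the start of Acot2; thick lines are gene spans and thin lines 95% confidence intervals. Acot3 at 3.19 and Acot4 at 1.77 stand side by side. Acot1 at 0.96 is next to Acot4, with Acot2 at -0.06 beyond it. Acot6 at -0.62 lies past Acot5 at the other end.

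Of other acyl-CoA thioesterases, 9 were tested, with a median log2 fold change of 0.22. Acot7, a cytosolic long-chain thioesterase best known from brain, rose to 27.9 ± 1.91 CPM in Cys52Ser livers, against 19.0 ± 1.57 CPM in WT livers (SD, n = 3 each; log2 fold change 0.56, edgeR adjusted p = 0.0411). Acot9, a mitochondrial thioesterase, fell to 13 ± 1.19 CPM in Cys52Ser livers, against 21.8 ± 0.851 CPM in WT livers (log2 fold change -0.74, edgeR adjusted p = 0.0243). The Acot7 call was lost in 13 of 18 alternatives, among them library totals alone (log2 fold change 0.21), and the Acot9 call in 3 of 18. Not called were Hibch, which hydrolyses 3-hydroxyisobutyryl-CoA in valine breakdown, at 0.36 and Ppt2, a lysosomal thioesterase, at 0.22 on the log2 scale.

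Of 10 tested genes of other amino acid conjugation, with a median log2 fold change of 0.41, 2 rose. Slc27a5, the bile acyl-CoA synthetase that prepares bile acids for conjugation, was at 532 ± 70.1 CPM in Cys52Ser and 234 ± 47.5 CPM in WT livers (SD, n = 3 each; log2 fold change 1.19, edgeR adjusted p = 0.0243). Acsm3, a medium-chain acyl-CoA synthetase, was at 135 ± 15.4 CPM in Cys52Ser and 66.6 ± 13.3 CPM in WT livers (log2 fold change 1.02, edgeR adjusted p = 0.0267; call lost in 5 of 18 alternatives). Acsm1 (0.80) and Glyat, the glycine N-acyltransferase of the liver (0.21), were not called. By edgeR none of the 10 was lower, with none at an unadjusted p under 0.05 and none by DESeq2; limma on FPKM gave 1 lower at an unadjusted p.

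The enzymes that make the substrates of these thioesterases were counted next. Of 17 acyl-CoA synthetases (median 0.27), 3 rose: Acsl1, the main long-chain acyl-CoA synthetase of liver, with a log2 fold change of 1.34 (916 ± 193 CPM in Cys52Ser, 363 ± 67.7 CPM in WT livers; SD, n = 3 each; edgeR adjusted p = 0.0243), Slc27a5, and Slc27a2, a very-long-chain synthetase, with 0.84 (edgeR adjusted p = 0.0499). The calls were lost in 4 of 18 alternatives for Acsl1 and for Slc27a5, and in 9 of 18 for Slc27a2. Acsl5 (0.44) and Acsf2 (0.52) were not called. Of 17 genes of coenzyme A synthesis and hydrolysis (median 0.18), Pank3, a pantothenate kinase, rose with a log2 fold change of 0.70 (edgeR adjusted p = 0.0234), a call lost in 8 of 18 alternatives. Nudt7, which hydrolyses coenzyme A in peroxisomes, was at 248, 145 and 176 CPM in Cys52Ser livers, against 135, 100 and 313 CPM in WT livers, and Dbi, the acyl-CoA binding protein, had a log2 fold change of 0.08; neither was called. In these 2 lists edgeR called no gene lower, with 1 synthetase and no coenzyme A gene lower at an unadjusted p under 0.05; DESeq2 called 1 synthetase lower, and limma on FPKM 1 gene lower in each list.

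Among 44 tested PPAR-alpha target genes (median 0.50), 8 rose and 2 fell by edgeR. Over all tested genes, 2.52% were called higher and 2.46% lower. The list counts depended on tool and scaling. DESeq2 called 23 higher and 4 lower, limma on FPKM 6 higher and 5 lower, and edgeR with library totals alone 5 higher and 6 lower. Without Cys52Ser replicate 1 or replicate 3, 1 was called higher. Plin5, a lipid droplet protein, had a log2 fold change of 1.45 (120 ± 30.6 CPM in Cys52Ser, 43.7 ± 0.258 CPM in WT livers; SD, n = 3 each; edgeR adjusted p = 0.0169). Cyp4a32, of the fatty acid hydroxylase family, had 1.04 (28.1 ± 3.69 CPM in Cys52Ser, 13.6 ± 3.67 CPM in WT livers; edgeR adjusted p = 0.0434). Crot, which moves chain-shortened acyl groups out of peroxisomes as carnitine esters, fell by 0.96 on the log2 scale, to 338 ± 48.9 CPM in Cys52Ser livers, against 656 ± 41.9 CPM in WT livers (edgeR adjusted p = 0.0245). The calls were lost in 9 of 18 alternatives for Cyp4a32, in 3 for Crot and in 1 for Plin5. The other gene that fell was Cd36, a fatty acid uptake receptor. Fabp1, a fatty acid binding protein of liver, was not called (0.70).

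Of 20 peroxisomal beta-oxidation genes (median 0.62), 4 rose and Crot fell by edgeR. DESeq2 called 13 higher and 1 lower, and limma on FPKM 3 higher and 1 lower. Among the 4 that rose by edgeR, Hacl1 had 0.93 and Abcd3, a peroxisomal acyl-CoA importer, 0.91. These calls were lost in 11 of 18 alternatives for Hacl1 and in 5 for Abcd3. Scp2 (0.26) and Phyh (0.62) were not called. Of 14 genes of PPAR receptors and their partners (median 0.39), 4 rose: Ppara itself, at 68.9 ± 8.33 CPM in Cys52Ser and 24.8 ± 6.78 CPM in WT livers (SD, n = 3 each; log2 fold change 1.47, edgeR adjusted p = 0.0207), Hnf4a (0.92), Rxra (0.64) and Esrra (0.60). The calls were lost in 13 of 18 alternatives for Rxra, in 11 for Esrra, in 6 for Hnf4a and in 4 for Ppara. Lpin1 (0.44) and Nr1h4 (0.63) were not called, and edgeR called none of the 14 lower, with 1 lower at an unadjusted p under 0.05 1 called lower by DESeq2 and 2 by limma on FPKM. Over all 7 lists, which share some genes, 19 of 118 tested genes rose and 3 fell. The number higher was 1 without Cys52Ser replicate 1 or replicate 3, 2 without WT replicate 1 or replicate 2, and 12 without Cys52Ser replicate 2 or WT replicate 3, and with library totals alone it was 11 higher and 11 lower.

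Markers of cell types moved with genotype beside these genes. The summed level of 11 hepatocyte markers was 127539 to 157737 CPM in Cys52Ser and 52178 to 87956 CPM in WT livers, with a median log2 fold change of 0.82 and 1 of the 11, Cps1, called higher. The log2 fold changes of Acot3, Acnat2, Acot4, Acnat1 and Acot1 (3.19, 2.11, 1.77, 1.28 and 0.96) were above that median, and those of Acot12, Acot8, Acot13 and Acot2 below it. Single hepatocyte markers ranged from 0.45 (Hpx) to 1.40 (Cps1), and Acnat1 and Acot1 lay within that range. Since the 10 genes were chosen on this contrast, nothing is read from their place beside the markers. Alb made up most of the hepatocyte sum, at 85846 to 104319 CPM in Cys52Ser and 29788 to 53149 CPM in WT livers. Cholangiocyte markers summed to 139 to 425 CPM in Cys52Ser and 605 to 1284 CPM in WT livers (1 of 6 called lower), stellate cell and myofibroblast markers to 746 to 956 CPM in Cys52Ser and 1228 to 2041 CPM in WT livers (3 of 8 called lower), and macrophage markers to 738 to 960 CPM in Cys52Ser and 1085 to 1466 CPM in WT livers (3 of 7 called lower, 1 higher). Gpnmb, 1 of the 3 macrophage markers called lower, had the largest part in the gap of the macrophage sum. It was at 171 to 243 CPM in Cys52Ser and 481 to 774 CPM in WT livers. Adgre1 (log2 fold change -0.20) and Csf1r (-0.07) overlapped between genotypes, and Clec4f (1.56) was the macrophage marker called higher. The macrophage sum thus does not stand for all 7 markers. Spp1 made up most of the cholangiocyte sum, at 116 to 335 CPM in Cys52Ser and 558 to 1161 CPM in WT livers. Krt19 of that list and Des and Acta2 of the stellate list had positive log2 fold changes (0.55, 0.66 and 0.76). For these 3 genes Cys52Ser replicate 2 was the highest of all livers, at 61.7, 60.1 and 90.4 CPM, while the other Cys52Ser livers lay below all WT livers. Endothelial markers summed to 221 to 270 CPM in Cys52Ser and 170 to 202 CPM in WT livers (2 of 5 called higher). Markers of kidney tubule summed to at most 0.423 CPM, those of adipocytes to at most 2.63 CPM and those of heart and skeletal muscle to at most 9.17 CPM in any library; Adipoq, Lep, Slc5a2, Umod and Myh6 were at or near 0. In whole liver, fewer cells of a type and less RNA per cell cannot be told apart. The part of cell makeup in the differences of the 10 genes was not tested.

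Likeness of profile was measured over the 6 libraries as the root mean square distance of log2(CPM + 0.5), each gene centred on its own mean. Among the 10 genes, Acot4 and Acnat2 were each other's closest, at 0.364, and Acot4 was also the closest to Acot3 (0.721), Acot1 (0.409) and Acnat1 (0.42). Acot2 was closest to Acot1 (0.466), and Acot8 and Acot13 to each other (0.17). The 10 genes were chosen with the genotype differences of these libraries known, and those differences are part of each profile. Nothing is therefore read from the likeness among the 10 genes. Among all other tested genes, the closest was Slc16a5 for Acot4 (0.147), Cry1 for Acnat2 (0.2), Cyp2b9 for Acot3 (0.474), Gm4149 for Acot1 (0.143), Lepr for Acot2 (0.174) and Gm48702 for Acnat1 (0.141). For genes that varied little the nearest profile is close by construction: Pla1a for Acot8 (0.024), Rnf169 for Acot12 (0.047) and Gapdh-ps15 for Acot13 (0.018). Gm10123 was nearest to Acot5 (0.08). No gene came as near to Acot3 as to the others, whose nearest distances were at most 0.2. Distances on this scale grow with the size of a gene's changes, and the log2 fold change of Acot3 was large.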

How the data were processed

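Liver RNA of 3 Cys52Ser and 3 WT mice was sequenced. Per the labels' protocols, poly(A)-selected RNA was made into dUTP strand-marked libraries with molecular identifiers and read as paired ends on an Illumina instrument. Tools listed, without roles, in the submitters' processing notes are StringTie 1.3.4d, HISAT2 2.0.4, cutadapt 1.9, edgeR, DESeq2 and UMI-tools, with build mm9. However, 25637 of 28524 gene IDs found in GENCODE M21 (89.9%) had the same coordinates there, so GRCm38 is given. The authors deposited an FPKM value and an estimated count per gene and library, per the file headers. Counts were whole and lay within 1% of FPKM times length times a constant per library for 97.9% to 98.2% of single-transcript genes with high counts, so they stand for coverage-based estimates, and limits given for 0 or few counts cover counting error only.

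edgeR 4.0.16 in R 4.3.3 (filterByExpr with a minimum count of 10, TMM, robust quasi-likelihood fit, genotype as the only term) was run over all 18648 genes that passed, with Benjamini-Hochberg adjustment at 0.05. CPM are relative to TMM-scaled library sizes. All 10 genes passed the filter. The 10 genes and the related lists were chosen with earlier results of these data known, and the named list genes are those called (the 4 of largest change where more were called) and 2 not called of highest level. Replicates are separate mice by the design; every pair of libraries differed by more than sampling noise. Coding identity came from the longest open reading frames of GENCODE M21 transcripts, in place of the protein comparison that was planned. Alternatives were other scalings and filters, non-robust fits, DESeq2 1.42.0, limma 3.58.1 on log2(FPKM + 0.5) with mean FPKM of at least 0.1 and other settings of it, a replicate block, and leaving out each library. Acot6 belongs to the list of other thioesterases. Olah and Glyatl3 were not analysed here. A few list genes that meet the rule for naming are not reported here, but the list counts include them.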

Additional observations from a re-analysis of the deposited data

How the results depend on the processing

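The 4 calls among the 10 genes were the same in number under each other scaling, each filter, the non-robust fit, DESeq2 and limma on FPKM with a filter. They numbered 3 with limma without a filter and 3 with the replicate block, where Acnat1 lost its call. Correlations of deviations were -0.039, 0.137 and 0.018 between mice of the same replicate number, and -0.097 to 0.109 between mice of different numbers. Whether the numbers pair the mice was not tested. With the block 426 genes were called higher and 303 lower across the table. Leaving out 1 library gave 1 to 4 calls among the 10 genes, with 1 without Cys52Ser replicate 1 or 3. Acot3 lost its call without Cys52Ser replicate 1 or 3 or WT replicate 1 or 3, Acot4 without Cys52Ser replicate 1 or 3, Acnat2 without WT replicate 2 and Acnat1 without Cys52Ser replicate 1 or 3 or WT replicate 2. Their log2 fold changes stayed at 2.79 to 3.94, 1.57 to 1.99, 1.87 to 2.25 and 1.09 to 1.43, in that order. Across the table, leaving out 1 library gave 21 to 378 genes higher and 7 to 412 lower.

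Counts moved by more than 1.5 times across the table with DESeq2 (1498 higher, 1268 lower), library totals alone (293 higher, 2724 lower) and limma on FPKM, whose lower counts were 2498, 2585 and 2370 at pseudocounts of 0.5, 0.1 and 1; without a filter it gave 174 higher and 1091 lower. In the lists, DESeq2 gave 47 higher and 7 lower, library totals 11 and 11, limma 12 and 10 at pseudocounts of 0.5 and 0.1, 12 and 9 at 1, and 7 and 5 without a filter, and leaving out 1 library 1 to 12 higher and 0 to 4 lower.

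Signs turned for genes near no difference or near 0 counts. With the block Acot2 was at 0.24 and Acot5 at -0.52; leaving out 1 library gave Acot2 -0.443 to 0.774, with 0.009 without Cys52Ser replicate 2, and Acot5 -5.97 to 1.44, the lowest without Cys52Ser replicate 3, which leaves that group at 0 counts. Library totals alone gave -0.027 for Acot8, -0.24 for Acot13, -0.27 for Dbi, -0.13 for Glyat, -0.27 for Nudt7, -0.13 for Ppt2 and -0.091 for Scp2. Limma at 0.5 (with or without the filter), 0.1 and 1 gave -0.022, -0.023 and -0.02 for Acot8, -0.233, -0.235 and -0.23 for Acot13, -0.258, -0.259 and -0.258 for Dbi, -0.116, -0.117 and -0.114 for Glyat, -0.154, -0.155 and -0.153 for Nudt7, -0.123, -0.126 and -0.119 for Ppt2 and -0.088 throughout for Scp2. Leaving out 1 library gave -0.083 to 0.158 for Acot13, -0.077 to 0.168 for Dbi (-0.0 without WT replicate 2), -0.059 to 1.304 for Lpin1 and -0.288 to 0.631 for Nudt7, in each but Nudt7 lowest without WT replicate 1; Nudt7 was at -0.169 without WT replicate 1 and -0.187 without Cys52Ser replicate 1. The cause was not tested. The DR1 count was 1 gene at up to 1 mismatch and 5 at up to 3. Of 20 shares of the summed FPKM, 10 moved by more than 1 SD on CPM per kilobase of the longest transcript.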
